A study of Homo sapiens with 2 samples.

Results

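The activin genes described here are 10 genes in 4 roles. They comprise the ligand subunits INHBA, INHBB, INHBC and INHBE, the antagonists FST and FSTL3, the receptors ACVR1B, ACVR2A and ACVR2B, and the inhibitory SMAD7. Each was found by its symbol as 1 row of the deposited tables, so the 10 genes are part of 56638 in all. RNA was sequenced from TFK1, an established human cholangiocarcinoma (bile duct cancer) cell line, carrying lentiviral shRNA either against MBD2, a reader of methylated CpG dinucleotides (sh-MBD2), or as a negative control (sh-NC). Both cell populations carry a shRNA, received no further treatment per the labels, and gave 1 library each. Only 1 knockdown library was sequenced, so effects of lower MBD2, other effects of the hairpin and a difference between the cultures cannot be told apart. The list was drawn up around INHBB after its difference between these libraries had been seen, so all values below are a description, and no p-value is given. With 1 library per condition, no difference has a replicate check.

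Activins are dimers of inhibin beta subunits and belong to the TGF-beta family. A dimer of the INHBB product is activin B, a dimer of the INHBA product is activin A, and pairing of either subunit with the alpha subunit from INHA gives an inhibin, which opposes activin. The ligand binds a type II receptor (ACVR2A or ACVR2B), which activates a type I receptor (chiefly ACVR1B, also known as ALK4), and the receptor then phosphorylates SMAD2 and SMAD3. Follistatin (FST) and its relative FSTL3 bind activins outside the cell and block them, and SMAD7 interferes with signaling at the receptor. In epithelial cells this pathway acts on growth arrest and on the extracellular matrix.

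The promoters of the beta subunit genes INHBB and INHBA are shown because MBD2 binds methylated CpG and because these promoters lie near opposite ends of the range of CpG content. Each sequence holds the 250 bases before a RefSeq start of the gene, 5′ to 3′ on the gene's strand, with CpG dinucleotides in capitals. INHBB lies on the plus strand at chr2:120345886-120346135 and INHBA on the minus strand at chr7:41703091-41703340 (GRCh38.p14).
INHBB: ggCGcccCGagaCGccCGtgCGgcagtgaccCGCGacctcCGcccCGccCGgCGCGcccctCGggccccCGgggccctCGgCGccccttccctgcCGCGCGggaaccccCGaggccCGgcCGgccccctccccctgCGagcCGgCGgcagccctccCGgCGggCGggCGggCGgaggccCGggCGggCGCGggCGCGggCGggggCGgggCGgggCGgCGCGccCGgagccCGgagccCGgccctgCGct
INHBA: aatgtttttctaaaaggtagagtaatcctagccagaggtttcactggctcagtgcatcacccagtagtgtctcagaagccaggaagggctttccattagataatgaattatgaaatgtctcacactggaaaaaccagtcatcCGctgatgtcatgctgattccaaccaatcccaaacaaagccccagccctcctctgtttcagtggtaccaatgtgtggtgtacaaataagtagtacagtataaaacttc
The INHBB stretch holds 46 CpG dinucleotides and the INHBA stretch holds 1. In the full window of 300 bases, which adds 50 bases after the start, INHBB has 58 CpG dinucleotides, and 0.174% of the 35116 RefSeq promoter windows have at least as many. INHBA has 1, and 11% of windows have no more than that.

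The other matched genes lie between them. Of the 10 genes, 9 matched a RefSeq window, and INHBE did not. ACVR1B has 56 CpG dinucleotides in the richer of its windows, FSTL3 44, FST 32, ACVR2B 31, SMAD7 17 in the richest of its windows, ACVR2A 16 and INHBC 3. The median of all windows was 14. The GC box GGGCGG, searched on both strands, occurs 10 times in the INHBB window and not in the INHBA window, and 45.0% of all windows hold it. Part of each GC box is itself a CpG. The palindromic SMAD motif GTCTAGAC was in none of the windows of these 9 genes and in 0.202% of all windows. The shorter SMAD element CAGAC, searched on both strands, was in at least 1 window of INHBA, INHBC, ACVR1B, ACVR2A and SMAD7. It was not in the windows of INHBB, ACVR2B, FST or FSTL3, and 45.3% of all windows hold it. These are letters in the reference genome, and neither methylation nor MBD2 binding at these promoters was measured in the libraries.

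**Figure D1:**
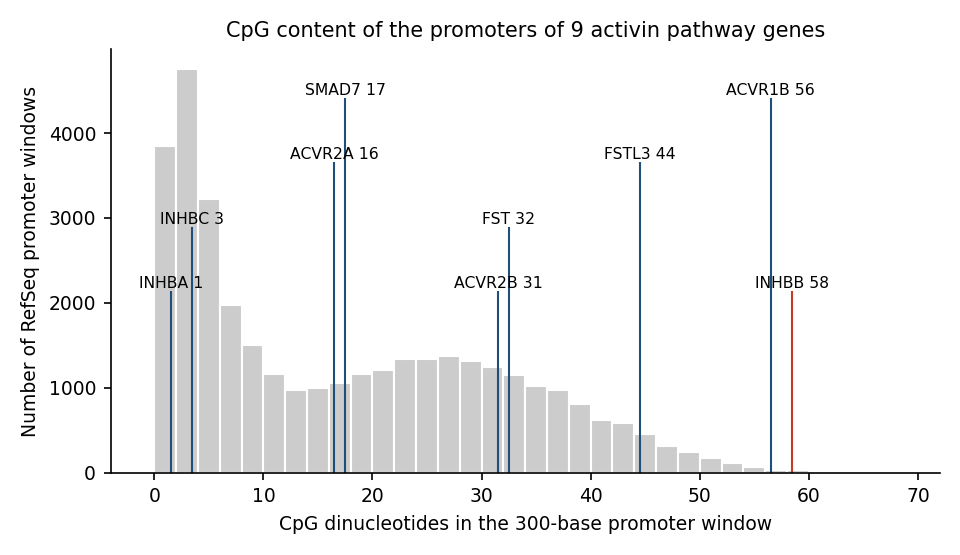
The bars give the number of RefSeq promoter windows (y axis) by the number of CpG dinucleotides in the 300 bases (x axis), and the lines mark 9 activin genes at their richest window. INHBB, at 58, lies at the far right of the distribution and INHBA, at 1, at the far left.

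MBD2, the targeted gene, was counted 365 times in sh-MBD2 against 1013 times in sh-NC, and its log2FC was -1.48 (95% interval -1.66 to -1.31). The log2FC is the log2 ratio of sh-MBD2 over sh-NC after scaling by TMM factors and adding 0.5 counts. The intervals, computed by the exact Clopper-Pearson method from how a gene's reads split between the libraries, cover only counting error. Genes with at least 10 counts over both libraries are called assessed, and pairs of values below give sh-MBD2 first and sh-NC second unless stated. The libraries held 14728814 counts (sh-MBD2) and 14467406 counts (sh-NC). The bile duct markers were present, with KRT7, a keratin of bile duct epithelium, at 1160 and 1327 TPM, and KRT19 lower, at 15.0 and 9.04 TPM. Of 6 such markers, 2 were higher and 4 lower in sh-MBD2, the lowest being SOX9 at -0.73. Endothelial and fibroblast markers were near 0. The 5 endothelial markers summed to 0 and 1 counts and the 6 fibroblast markers to 22 and 21, of which THY1 had 14 and 6. The 8 leukocyte markers summed to 136 and 63 counts, of which LAPTM5 (29 and 3) and CORO1A (56 and 19) were higher in sh-MBD2 and ITGAM had 50 and 38, while CD52 and CD3E had 0 counts in both libraries and PTPRC, which marks all leukocytes, had 0 and 1. The part of these genes in the results was not tested.

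INHBB was the dominant ligand gene of the 10 and the only one to differ by more than 2-fold between these libraries. It had 711 counts in sh-MBD2 and 2552 in sh-NC. In TPM, which allows levels of different genes to be compared, these were 38.8 and 143. sh-MBD2 thus held the lower value, at 27.7% of the normalized count in sh-NC, with a log2FC of -1.85 (interval -1.97 to -1.73). INHBB (ENSG00000163083) is annotated on chromosome 2 from 120346143 to 120351808 on the plus strand (GRCh38, GENCODE 29), with 1 transcript of 2 exons. By TPM it ranked 961 of all genes in sh-NC and 4097 in sh-MBD2. In bulk RNA, fewer expressing cells and less RNA per cell cannot be told apart.

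Ordered by log2FC, INHBB was number 202 from the lowest of the 17545 assessed genes, as a description, since this difference is the one the list was built on. The 5 genes nearest to it in log2FC, over 2 libraries and among genes with at least 1000 counts in sh-NC, were FGB (a fibrinogen chain) at -1.74, CEACAM6 (a cell adhesion molecule) at -2.00, INSL4 (an insulin-like peptide of placenta) at -1.61, MBD2 itself at -1.48 and SCD (the stearoyl-CoA desaturase) at -1.46. The minimum was set on sh-NC, the library where INHBB and these genes are higher, and 4 of the 5 had fewer than 1000 counts in sh-MBD2, as INHBB did, so nothing is read from their being low.

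The other ligand subunits were scarce. INHBE, a subunit made mainly in liver, had 18 counts in sh-MBD2 (1.30 TPM) and 32 in sh-NC (2.36 TPM). The log2FC of INHBE was -0.82, and the interval from -1.76 to 0.038 included 0. INHBA had 8 and 4 counts, or 0.231 and 0.118 TPM, with a log2FC of 0.91 and an interval from -0.91 to 3.17. INHBC had 2 counts in each library, too few for a fold. At this depth the reads therefore did not settle a direction for INHBE or INHBA, and INHBC could not be assessed.

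Because of this scarcity, the pool of beta subunit RNA was almost entirely INHBB in both libraries. INHBB made up 98.2% of the summed TPM of the 4 subunits in sh-NC and 95.8% in sh-MBD2. The sum itself was 146 TPM in sh-NC and 40.5 TPM in sh-MBD2. INHA, whose product turns a beta subunit into an inhibin, had 14 counts in sh-MBD2 and 16 in sh-NC (1.67 and 1.96 TPM).

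Of the antagonists, FSTL3 differed in the other direction from INHBB, and FST had too few reads to place. FSTL3 was the most abundant of the 10 genes in sh-MBD2, at 105 TPM (1507 counts), and second to INHBB in sh-NC, at 93.1 TPM (1297 counts). It was slightly higher in sh-MBD2, with a log2FC of 0.21 (interval 0.10 to 0.32). FST had 10 counts in sh-MBD2 and 15 in sh-NC, or 0.689 and 1.06 TPM, and the interval around its log2FC of -0.57 ran from -1.91 to 0.66. FSTL3 was thus the more abundant antagonist, at 153 times the TPM of FST in sh-MBD2 and 87.7 times in sh-NC.

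The order of ligand and antagonist RNA differed between the libraries. In sh-NC, INHBB had 1.54 times the TPM of FSTL3. In sh-MBD2 FSTL3 had 2.72 times the TPM of INHBB. Summed over the genes of each role, the antagonists were at 0.646 times the ligand subunits in sh-NC and at 2.62 times in sh-MBD2. These ratios mostly restate the INHBB difference on which the list was built. INHBB made up nearly all of the ligand sum, and FSTL3 itself differed only 1.15-fold. They are ratios of RNA, and protein was not measured in these libraries.

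**Figure D2:**
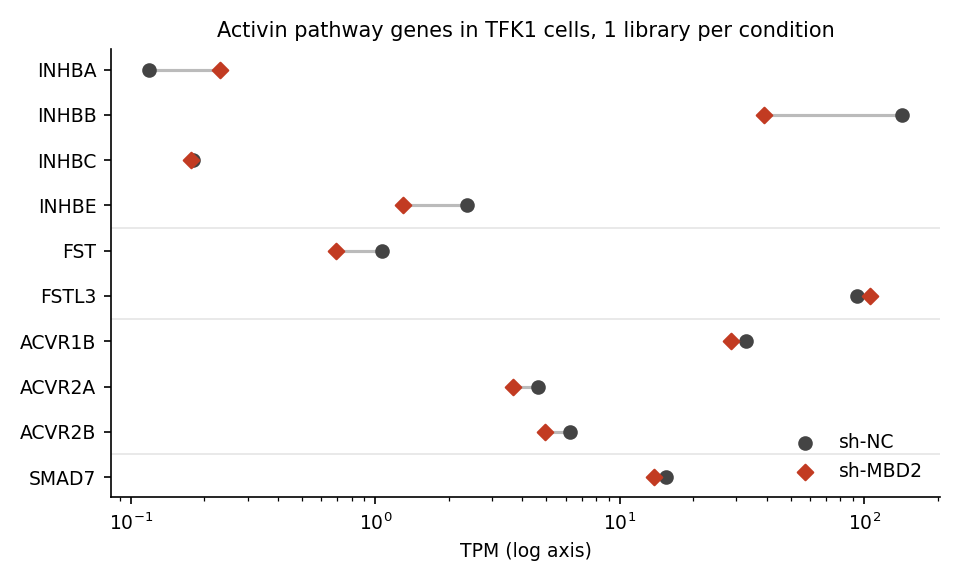
TPM of the 10 activin genes on a log axis, with circles for sh-NC and diamonds for sh-MBD2, 1 library each, grouped from top to bottom as ligand subunits, antagonists, receptors and SMAD7. INHBB moves from 143 to 38.8 TPM, whereas FSTL3 is at 93.1 TPM in sh-NC and 105 TPM in sh-MBD2 and the receptors keep their order.

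The receptors were all present and all slightly lower in sh-MBD2. ACVR1B, the type I receptor, had 741 counts in sh-MBD2 and 832 in sh-NC, or 28.4 and 32.7 TPM, and a log2FC of -0.18 (interval -0.32 to -0.031). ACVR2B had 334 and 414 counts, or 4.94 and 6.28 TPM, and a log2FC of -0.32 (interval -0.53 to -0.11). ACVR2A had 120 and 148 counts, or 3.66 and 4.64 TPM, and the interval around its log2FC of -0.31 ran from -0.67 to 0.046. For the first 2 of these the interval lay below 0, but it leaves out the variation between cultures, and all 3 lay well inside -1.

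The balance of the receptors was nearly the same in both libraries. ACVR1B exceeded the summed TPM of the type II receptors 3.0 times in sh-NC and 3.3 times in sh-MBD2. ACVR2B was at 1.36 times the TPM of ACVR2A in sh-NC and 1.35 times in sh-MBD2. INHBB was at 4.37 times the TPM of ACVR1B in sh-NC and at 1.37 times in sh-MBD2, which mostly restates the INHBB difference.

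SMAD7, which signaling through SMAD2 and SMAD3 induces and which feeds back on the receptor, had 244 counts in sh-MBD2 (13.8 TPM) and 265 in sh-NC (15.4 TPM). The interval around its log2FC of -0.13, from -0.38 to 0.13, included 0, so the libraries did not differ beyond counting error for this gene.

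Taking the 10 genes as a group, 9 had at least 10 counts over both libraries. Of these, 1 lay below -1 (INHBB), where 5.07% of all 17545 genes did, and 0 lay above 1, where 5.48% did. The list was built around INHBB, so nothing is read from that count. The 9 genes had a median log2FC of -0.31, and the 8 without INHBB -0.24, against -0.0082 for all genes. Of the 9, 7 were lower and 2 higher in sh-MBD2, where 51.1% of all genes were lower, and for 5 the interval included 0. The 7 include INHBB, on which the list was built, and INHBE, FST, ACVR2A and SMAD7, whose intervals included 0.

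**Figure D3:**
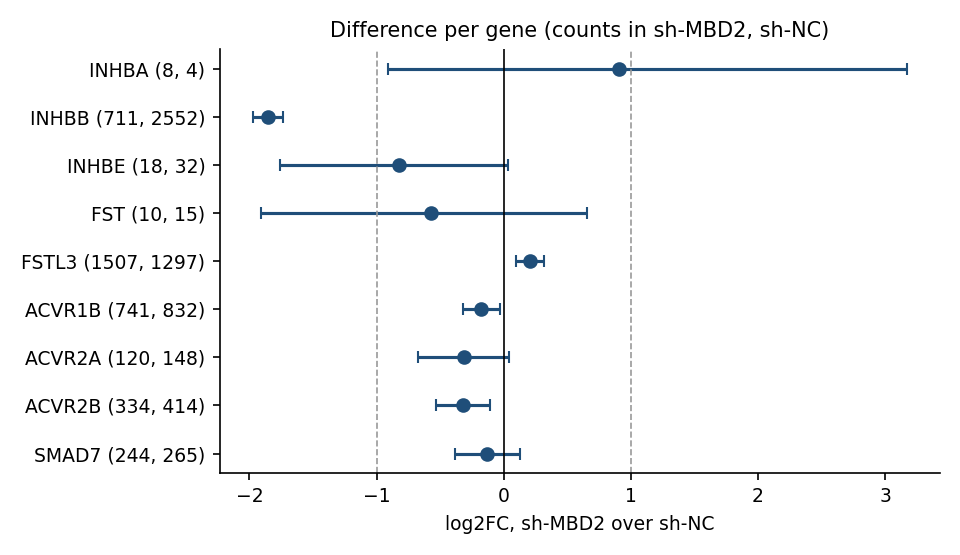
Points give the log2FC of sh-MBD2 over sh-NC (x axis) of the 9 genes with at least 10 counts, bars the 95% Clopper-Pearson interval (counting error only), and the numbers beside each symbol its counts in sh-MBD2 and sh-NC. INHBB alone lies with its whole interval past -1, while INHBA, INHBE and FST have wide intervals because they have few reads.

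Genes that overlap a member could share its reads if strand was ignored in the counting, for which no setting is given in the sources used here. By the deposited coordinates, no gene overlaps INHBB, INHBC, INHBE, FST, FSTL3 or SMAD7. ACVR2B-AS1, antisense to ACVR2B, had 12 counts in sh-MBD2 and 25 in sh-NC, a log2FC of -1.04. ORC4, which overlaps ACVR2A on the opposite strand, had 644 and 677 counts. INHBA-AS1 had 0 in both, and AC005027.3, RNU6-574P, RNU6-1275P and AC009480.3 had at most 4 counts.

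The neighbors of INHBB on chromosome 2 lay on both sides of 0. Within 1000 kb on either side, 13 other genes had at least 10 counts, of which 7 were lower and 6 higher in sh-MBD2. None lay below -1, where 5.07% of all genes did. PCDP1, with 13 and 6 counts, lay above 1 at 1.05, where 5.48% of all genes did. With so few genes, nothing is read from these counts. The nearest of these upstream, RALB (a small GTPase, 51430 bases away), had 1053 and 992 counts, a log2FC of 0.077. The nearest downstream, GLI2 (a transcription factor of Hedgehog signaling, 383815 bases away), had 649 and 528 counts and a log2FC of 0.29. EPB41L5 was at -0.60 (593 and 893 counts) and C2orf76 at -0.67 (81 and 128 counts), the lowest of the 13. The interval lay below 0 for C2orf76, DBI, PTPN4, EPB41L5 and CLASP1, and above 0 for GLI2 and TFCP2L1. The neighbors were named after their values were seen.

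Beyond the 10 genes, no other receptor, SMAD or SMAD regulator assessed lay past 1 or -1. Of all 17545 genes, 5.48% lay above 1 and 5.07% below -1, so nothing is read from this in lists this short. The 8 other type I and type II receptors assessed had a median of -0.039. They ran from BMPR1B at -0.43 to ACVRL1 at 0.76 (14 and 8 counts). For 7 of them the interval included 0, and for 1 it lay below 0. TGFBR2, the TGF-beta type II receptor, was abundant in both libraries at 157 TPM in sh-MBD2 and 167 in sh-NC. The 14 assessed SMADs and SMAD regulators had a median of -0.013. The interval lay above 0 for 4 of them, below 0 for 4, and included 0 for 6. SMAD3, which carries the activin signal to the nucleus, had 6676 and 6399 counts (log2FC 0.052), and its partner SMAD2 had 2120 and 2528 (log2FC -0.26). The highest of this list was SMURF2, a ubiquitin ligase that targets the receptors, at 0.51, and the lowest was TGIF1, a corepressor, at -0.31.

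The other regulators of activin and inhibin also stayed inside these lines. Of 7 assessed, 0 lay past 1 or -1, where 5.48% of all genes lay above 1 and 5.07% below -1, so nothing is read from that. The interval lay above 0 for 2 of the 7, below 0 for 1, and included 0 for 4. The median of these regulators was 0.012. It was -0.016 with either pseudocount on the deposited TPM and -0.0052 with total counts, so its sign depends on the scaling. FSTL1, a secreted relative of follistatin, was the highest at 0.57 (2602 and 1743 counts) and LTBP1, which anchors latent TGF-beta in the matrix, the lowest at -0.51 (455 and 644 counts). FURIN, a protease that cleaves the activin precursors, had 1058 and 1043 counts.

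The listed target genes of TGF-beta and activin were more often higher than lower in sh-MBD2. This list was chosen with earlier results of these data known and leaves out some induced genes, so nothing is read from the split. Of 15 assessed, 11 were higher and 4 lower, where 48.9% of all genes were higher and 51.1% lower, and the median was 0.26 against -0.0082 for all genes. The interval lay above 0 for 8 of the 15, below 0 for 3, and included 0 for 4. Above 1 lay 2 of them, where 5.48% of all genes did, and below -1 lay 1, where 5.07% did. PMEPA1, a feedback inhibitor of SMAD signaling, had 5313 and 1612 counts and a log2FC of 1.71 (interval 1.63 to 1.79). LTBP2, a matrix protein, had 700 and 344 counts and lay just above 1 at 1.02 (interval 0.83 to 1.21), and it lay inside that line with total counts and with the deposited TPM. GADD45B, a stress-response gene, was the lowest, with 155 and 392 counts and a log2FC of -1.34 (interval -1.63 to -1.08).

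Among the abundant targets that stayed inside these lines, TGFBI, a matrix protein, had 17802 counts in sh-MBD2 and 10193 in sh-NC (log2FC 0.80). CDKN1A, a cell cycle inhibitor, had 1821 and 994 (log2FC 0.86). TGFBI and CDKN1A were the highest inside these lines, and other abundant targets differed less or were lower. FN1 had 24146 and 20162 counts (log2FC 0.25). Lower in sh-MBD2, with intervals below 0, were BHLHE40 (2252 and 2418, log2FC -0.11) and TSC22D1 (2060 and 2434, log2FC -0.25). These genes also respond to other signals, and the part of activin in their values was not tested. SKIL, a corepressor that the pathway induces and that was counted among the SMAD regulators, was at -0.23. SMAD7, also induced and counted among the 10 activin genes, was at -0.13, with an interval that included 0.

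Targets of BMP signaling, a sister branch of the family, had a median of 0.35. Of 8 assessed, 7 were higher and 1 lower, where 48.9% of all genes were higher, but the interval lay above 0 for 4 and included 0 for the other 4. Of the 8, MSX2, a homeobox factor, was the only one above 1, with 839 and 352 counts (log2FC 1.24, interval 1.06 to 1.43). ID1 was the lowest, at -0.020, with 4016 and 4047 counts.

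The list of other TGF-beta family ligands also holds BMP1, which is a protease and not a ligand despite its name. Of 18 assessed, 9 were higher and 9 lower. BMP1 was among the higher, with 1062 and 921 counts (log2FC 0.20), so the even split holds only with it included. The median with BMP1 included was -0.089, and it was 0.19 when only genes with at least 100 counts were kept. Below -1 lay 4 of the 18, where 5.07% of all genes did, and above 1 lay 1, where 5.48% did. Those below -1 included BMP5 (14 and 69 counts, log2FC -2.27, interval -3.25 to -1.47) and BMP6 (42 and 138 counts, log2FC -1.71, interval -2.26 to -1.22). NODAL (2 and 8 counts, log2FC -1.77) and GDF6 (5 and 14 counts, log2FC -1.41) were also below -1 but had intervals that included 0, and so did GDF7 (11 and 3 counts), which lay above 1 at 1.71. The abundant TGFB1 was at 0.34 (2023 and 1588 counts) and TGFB2 at -0.36 (1586 and 2024 counts).

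**Figure D4:**
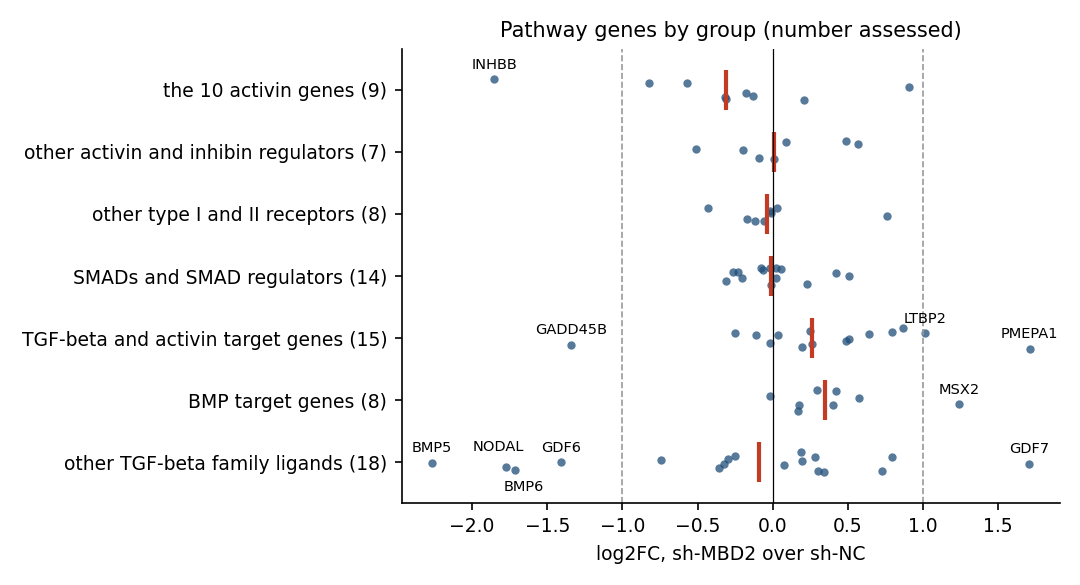
Each point is a gene, placed by its log2FC of sh-MBD2 over sh-NC (x axis) in its group (rows, with the number assessed), red bars are group medians, points are spread vertically at random, and genes past -1 or 1 are named. The receptors, SMADs and regulators sit between -1 and 1, the target genes lean to the right (medians 0.26 and 0.35), and INHBB is alone past -1 among the activin genes.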

How the data were processed

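Per the labels, reads were cleaned with fastp, aligned with HISAT2 2.1.0 and counted with featureCounts, and GRCh38.p13 is named as the build. None of the 10 activin genes has its GENCODE 29 (GRCh38) coordinates in the deposited tables, so positions printed here come from GENCODE or RefSeq, and the deposited ones served only to find overlaps and neighbors. The strand setting of the counting is not given in the sources used here. The authors deposited read counts, which are whole numbers without normalization, and TPM in a separate table. Both repeat a symbol's values on each of its Ensembl identifiers, so repeats were dropped (56638 genes from 63677 rows), after which the TPM summed to 1000000 in each library. No column belongs to another sample.

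TMM factors were computed with edgeR 4.0.16 in R 4.3.3 and intervals with scipy 1.17.1, on genes with at least 10 counts over both libraries. A library with 3 counts or fewer was taken as at the floor. With 1 library per condition no test could be fitted, and none was run. The functions were tested on simulated data. The activin genes and the other lists were chosen with earlier results of these data known. Named are all activin genes, MBD2, overlapping genes, members of the pathway lists past 1 or -1, the highest and lowest of each of those lists, and the 5 genes nearest to INHBB in log2FC among those with at least 1000 counts in sh-NC. A few further abundant or well-known list members, the neighbors and the cell type markers were added to these with their values known. The alternatives were DESeq2 1.42.0 size factors, total counts, upper-quartile factors, log2 of TPM plus 0.1 or 1, prior counts of 2 and 0.1, and minimums of 1 and 100 counts.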

Additional observations from a re-analysis of the deposited data

How the results depend on the processing

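INHBB kept its direction and stayed below -1 under the 7 alternatives of scaling and prior count, with a log2FC from -1.88 to -1.84, and MBD2 lay between -1.50 and -1.45. None of the 9 activin genes assessed changed sign under them, and INHBB was the only one past 1 or -1. Counts of genes moved with the filter. Above 1 and below -1 lay 4523 and 4303 genes with at least 1 count, 213 and 127 with at least 100, and 374 and 340 with log2 of TPM plus 1. Target genes above 1 numbered 1 with total counts and with either TPM pseudocount. Among the other TGF-beta family ligands, 2 lay above 1 with at least 1 count. With at least 100 counts 0 lay above 1 and 1 below -1, and with TPM plus 1 these were 0 and 2. Of the other receptors 1 lay above 1 with at least 1 count (AMHR2, 2 and 0 counts). Of 54 list medians compared, 18 changed sign or moved by over 1.5 times, mostly those close to 0. The SMAD list was at -0.0043 (DESeq2), -0.030 (total counts), -0.022 (upper quartile), -0.039 and -0.029 (TPM plus 0.1 and 1) and -0.0086 (at least 1 count). The regulators were at 0.021, -0.0052, 0.0027, -0.016 and -0.016 under the first 5 of these and at 0.051 with at least 100 counts. The other receptors were at -0.067 with both TPM pseudocounts, -0.020 with at least 1 count and -0.088 with at least 100. The BMP targets were at 0.23 with TPM plus 1, and the list of other ligands, BMP1 included, at 0.19 with at least 100 counts. The remaining 235 of 268 values kept within the gene's counting interval or, for counts of genes and medians, within 1.5 times. Subunit ratios from counts per kb were not run, since the files give no transcript length. Depth limits INHBA, INHBC, INHBE and FST, and no value here measures the spread of replicate cultures. No paired analysis was possible because there is a single library on each side.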
